A study of Mus musculus with 16 samples.

Results

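Loss and gain of transcripts between 1 and 3 h of actinomycin D was examined in mouse blood-forming cells labelled Nat10-deficient, using 4 of the 16 sequenced libraries: both count files at 1 h and both at 3 h. They were chosen by genotype and time alone, and every gene was followed. The cells came from lineage-depleted mouse bone marrow cultured with stem cell factor and thrombopoietin, received 5 µM actinomycin D, and were sorted as haematopoietic stem cells at each time, per the labels. Wild-type cells handled the same way, with 2 files each at 1 and 3 h, serve as the comparison, and files at 0 and 5 h enter the shared estimate of spread, the stability classes (wild type at 0 h) and values that place the interval. The labels call the cells long-term haematopoietic stem cells (LT-HSCs), whereas the sample titles name 32D, a mouse myeloid progenitor line, and nothing in the labels resolves this. The titles give the genotype as Nat10-/-, the characteristics as Nat10 deficiency. How and in which cells the gene was removed, the animals' age and strain, and whether animals were pooled are not given in the sources used here.

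Actinomycin D binds DNA and stops RNA polymerases, so an mRNA that is no longer made is followed as it decays. mRNAs of transcription factors and signalling feedback genes carry elements that recruit deadenylases and vanish quickly, whereas mRNAs for ribosomal proteins, metabolic enzymes and secreted proteins usually persist. Nat10 is the acetyltransferase that places N4-acetylcytidine (ac4C) on RNA, a mark linked to the stability and translation of mRNA. Each time point is a separate sort, so a difference between 1 and 3 h holds both the loss of RNA and any difference in the cells collected. In bulk RNA, fewer cells of a type and less RNA per cell cannot be told apart.

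The 4 files held 13516675 to 14730106 counts, of which 8560 to 9065 fell on ERCC spike-ins, which are artificial RNAs. Per the labels, every RNA sample received the same amount of them. ERCC reads made up 0.0585% of counts at 1 h and 0.0639% at 3 h, against 2.91% and 2.24% in wild type. Changes are given as log2 values of 3 h against 1 h on 2 scales. The ERCC scale divides each file by its summed spike-in counts and follows RNA per unit of spike-in. The non-immunoglobulin scale divides by the summed counts of all genes other than immunoglobulin genes, and its levels are printed as CPM, counts scaled to 1000000 of that sum. Non-immunoglobulin counts per ERCC count fell by 0.39 on the log2 scale from 1 to 3 h, so a value on the ERCC scale lies about that far below its partner. The 18 spike-in species with at least 10 counts in every file ranged from -0.45 to 0.93 between the times, with a median of 0.

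The 2 files of a group name the same alignment in their headers. Counts of the pair at 1 h differed by 1.70 times sampling noise (chi-square per degree of freedom), as did the pair at 3 h, while files of different times differed by 143 to 144 times. The labels speak of biological replicates, but the p-values below measure the spread between these files, which may be technical. The files of each group were also summed to 1 library and tested with edgeR. That fit put wild type on a straight line over the hours, and wild-type departures from that line alone gave its spread. The number of genes passing therefore depends on that line. No gene passed an adjusted p of 0.05 on the non-immunoglobulin scale (534 had an unadjusted p under 0.05). On the ERCC scale 1 gene passed (705 had an unadjusted p under 0.05). That gene, named after its value was seen, was Dusp8, a phosphatase that switches off stress kinases, with 3.21 and 3.37 CPM at 1 h and 0 in both files at 3 h. As the files of a group may be technical, verbs such as rose and fell describe these libraries, on the non-immunoglobulin scale unless stated. Values after ± are standard errors of that fit over 2 files a group, and adjusted p-values are over all genes tested.

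Nat10 itself, on chromosome 2 at 103551601 to 103591615 (GRCm39), was present in every file. The Nat10 level was 101 and 107 CPM at 1 h and 125 and 128 CPM at 3 h. It averaged 119, 104, 127 and 160.1 CPM at 0, 1, 3 and 5 h in the libraries labelled Nat10-deficient, and 107, 133, 66.7 and 39.7 CPM in wild type. The counts cover the whole gene, so they do not show whether a deleted part is missing. Both 3 h files lay above both 1 h files, with a log2 change of 0.28 ± 0.05 (adjusted p = 4.6e-07) that fell short of the threshold on the ERCC scale (-0.11, adjusted p = 0.061). Scaled on total gene counts or on long-lived mRNAs, the change was 0.01 and 0.07 and did not pass.

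Of 25081 genes tested, 5785 (23.1%) rose and 8597 (34.3%) fell on the non-immunoglobulin scale, with a median of -0.09. On the ERCC scale 3843 (15.3%) rose and 12176 (48.5%) fell, with a median of -0.48. Changes of at least 1 on the log2 scale were made by 4167 genes upward and 3945 downward on the first scale, and by 3289 and 6214 on the second. Genes that rose were 40.2% of those called on the non-immunoglobulin scale and 24.0% on the ERCC scale. This split followed the scaling: the share was 55.0% with DESeq2 size factors, 29.3% when long-lived mRNAs set the scale and 27.3% with total gene counts. Those scalings moved all genes by 0.21, -0.21 and -0.27, and TMM over all genes moved them by 0.14, so a change of that size has no fixed direction. Protein-coding genes had a median of -0.18 (3699 higher and 7043 lower of 16996), and long noncoding RNAs a median of 0 (845 higher and 715 lower of 3454).

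mRNAs of intermediate stability were defined in wild type, whose libraries are not among the 4. The wild-type sorts at 1 and 3 h differed in immunoglobulin share (25.6% and 49.4%), so decay and cell mix cannot be told apart in this class. Its mRNAs lost less than 1 on the log2 scale over the first hour and at least 1 from 1 to 3 h. Of these, 1528 genes had at least 8 CPM on average in the 4 files, and their median over the first hour in wild type was 0.07. In the libraries labelled Nat10-deficient 73.8% of them fell and 7.59% rose, with a median of -0.54 on the non-immunoglobulin scale and -0.93 on the ERCC scale. Their median in wild type was -1.39, which the definition sets. All 9010 non-immunoglobulin genes at this level had a median of -0.25, with 56.8% lower. mRNAs already lost during the first hour in wild type (449 genes) had a median of -0.53 with 67.0% lower, and mRNAs that stayed above -0.5 in both wild-type intervals (4433 genes, called persistent) a median of -0.11 with 44.0% lower. With TMM factors the 3 medians were -0.44, -0.38 and 0.0014, in the order intermediate, early and persistent. Genes split in 3 by exonic length had medians of -0.21, -0.27 and -0.27 from shortest to longest.

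**Figure D1:**
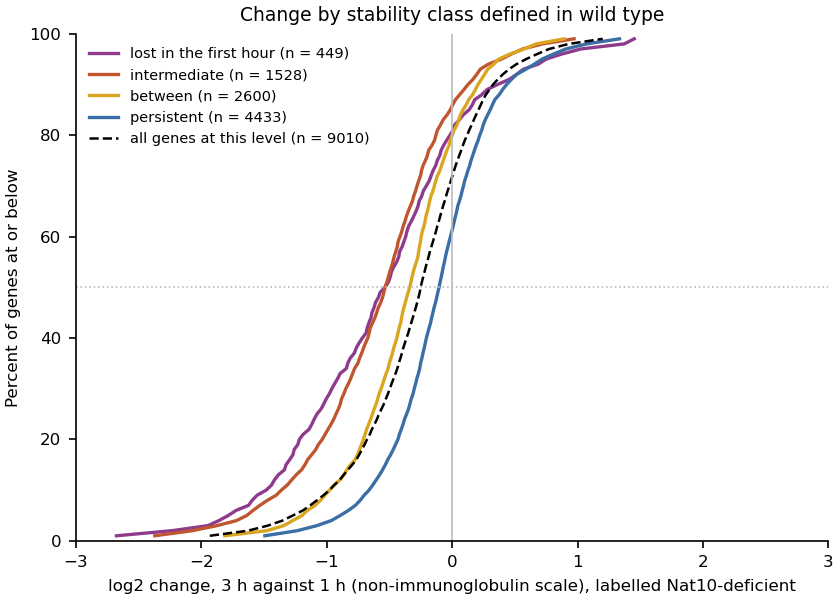
Percent of genes (y axis) at or below each log2 change from 1 to 3 h in the libraries labelled Nat10-deficient (x axis, non-immunoglobulin scale), by the behaviour of the gene in wild type, for genes with at least 8 CPM. The class named between holds the genes outside the other 3, and the dashed line all genes at this level. The intermediate and early classes lie left of the persistent class, with medians of -0.54, -0.53 and -0.11.

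The 8 mRNAs of the intermediate class with the highest level at 1 h, a level that the choice uses, all fell. They include adhesion and growth factor receptors of stem and progenitor cells. The class sets their wild-type fall at 1 or more, so a larger fall in wild type is favoured by the choice. The Adgrg1 level was 1475 and 1465 CPM at 1 h and 1008 and 1022 CPM at 3 h, for the adhesion receptor GPR56. The files of the 2 times did not overlap, and the change was -0.53 ± 0.02 (-1.39 in wild type). The Cd34 level was 559 and 575 CPM at 1 h and 219.7 and 209 CPM at 3 h, for the sialomucin of early progenitors. The log2 change of Cd34 was -1.40 ± 0.03 against -2.37 in wild type, with no overlap between times. The Kit level was 439 and 412 CPM at 1 h and 237 and 247 CPM at 3 h, the receptor for stem cell factor. Kit fell in both files, by a log2 value of -0.81 ± 0.03, against -2.08 in wild type. Bin2, a membrane-bending protein of blood cells, went from 450.0 to 227 CPM on average (-0.99 ± 0.03), Jun, an AP-1 factor, from 1081 to 563 (-0.94 ± 0.02), and Srsf5, an SR splicing factor, from 1249 to 862 (-0.54 ± 0.02). Hmgb3, a chromatin protein, and Hk1, a hexokinase, changed by -0.56 ± 0.03 and -0.25 ± 0.03, the latter lost with DESeq2 size factors (-0.03). On the ERCC scale the 8 values correspond to apparent half-lives of 1.11 h (Cd34) to 3.12 h (Hk1), taking the loss as exponential and the cells as the same.

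Immediate-early and other short-lived mRNAs with AU-rich elements encode transcription factors and feedback regulators made in response to stimuli. They went on falling: 45 of 50 (90%) fell and 4 rose, with a median of -0.95 (ERCC scale -1.34). The share lower was 34.3% of all genes tested (median -0.09). It was 56.8% of non-immunoglobulin genes with at least 8 CPM (median -0.25). The fall of the list held under every scaling tried. The Nr4a1 level was 201 and 205 CPM at 1 h and 15.6 and 18.2 CPM at 3 h, for an orphan nuclear receptor. Both 3 h files were far below both 1 h files, a change of -3.59 ± 0.06 and an apparent half-life of 0.502 h. The Fos level was 732 and 734 CPM at 1 h and 157 and 155 CPM at 3 h, for the AP-1 subunit, a change of -2.23 ± 0.03. The Egr1 level was 618 and 614 CPM at 1 h and 171 and 175 CPM at 3 h, for the zinc finger activator, a change of -1.83 ± 0.03. Neither gene's files overlapped between the times. Btg2, an antiproliferative partner of the deadenylase complex, and Fosb changed by -1.34 ± 0.03 and -1.12 ± 0.02. Hes1, the repressor downstream of Notch, went from 21.5 and 21.9 CPM at 1 h to 2.26 and 2.54 CPM at 3 h, and Ski, a corepressor of SMAD signalling, from 23.1 and 27.7 CPM at 1 h to 2.45 and 4.89 CPM at 3 h. Their values were -3.17 ± 0.17 and -2.78 ± 0.16. The largest fall by the naming rule was in Paqr8, a membrane progestin receptor, from 15.1 and 16.6 CPM at 1 h to 0.196 and 0.658 CPM at 3 h (-5.16 ± 0.31). Of the 50 mRNAs, 10 had an apparent half-life under 1 h, 25 one of 1 to 2 h and 11 one of 2 to 4 h, or 20%, 50% and 22%. Among all genes tested these shares were 15.1%, 14.8% and 19.4%.

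Of 392 zinc finger protein mRNAs 227 fell and 43 rose (median -0.63), and of 33 chromatin regulators 26 fell and 4 rose (median -0.54), or 57.9% and 78.8% lower. The share lower was 34.3% of all genes tested (median -0.09) and 56.8% of non-immunoglobulin genes with at least 8 CPM (median -0.25). The zinc finger share is above the first and near the second, but the list was not held to that level. The Zfp362 level was 85.7 and 90.3 CPM at 1 h and 28.9 and 27.7 CPM at 3 h. The files did not overlap, and Zfp362 changed by -1.64 ± 0.08. Zfp386 changed by -1.74 ± 0.10, and Zfp36, which binds AU-rich elements and recruits deadenylases, by -0.80 ± 0.03. The Arid1a level was 74.5 and 76.9 CPM at 1 h and 23.4 and 25.2 CPM at 3 h, a subunit of the BAF remodelling complex. Arid1a lay lower in both 3 h files (-1.64 ± 0.08), and Crebbp, a histone acetyltransferase, changed by -1.09 ± 0.07. Asxl1, a Polycomb-linked regulator often mutated in myeloid disease, went from 30.6 and 29.6 CPM at 1 h to 9.62 and 10.7 CPM at 3 h (-1.56 ± 0.12), against 1.83 in wild type.

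mRNAs for RNA processing were mostly lower on this scale. SR splicing factors and their kinases fell in 12 of 17 and rose in 1 (median -0.22), the decay machinery fell in 31 of 39 and rose in 4 (median -0.40), and RNA modification enzymes fell in 26 of 39 and rose in 1 (median -0.27). Those lower were 70.6%, 79.5% and 66.7%, beside 56.8% of genes with at least 8 CPM. With DESeq2 size factors 8, 21 and 16 were lower and 3, 6 and 6 higher, with medians of -0.01, -0.19 and -0.05. The Ythdf2 level was 189 and 196 CPM at 1 h and 72.3 and 70.6 CPM at 3 h, a reader of N6-methyladenosine that delivers mRNAs to deadenylation. Ythdf2 was lower in both 3 h files, by a value of -1.43 ± 0.05. Edc3, an enhancer of decapping, changed by -1.26 ± 0.08, Cnot1, the scaffold of the CCR4-NOT deadenylase, by -0.83 ± 0.05, and Srsf7 by -0.59 ± 0.03. Fbl, the fibrillarin methyltransferase of box C/D snoRNPs, changed by -0.67 ± 0.05. Nuclear and snoRNA host noncoding RNAs had no common direction (4 higher and 5 lower of 17, a median of -0.08 that turns positive with TMM or DESeq2 factors). In that list Malat1, a nuclear-retained noncoding RNA, changed by 0.86 ± 0.04, and Gas5, a snoRNA host, by -0.59 ± 0.06.

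Of 42 genes that mark stem cells 26 were lower and 12 higher, with a median of -0.55 (ERCC scale -0.95). Those lower were 61.9%, above the 34.3% of all genes tested. That is near the 56.8% of non-immunoglobulin genes with at least 8 CPM, whose median was -0.25. Those higher were 28.6%, beside 16.7% at that level. Of the 42, 33 (78.6%) belong to the intermediate class in wild type, which holds 19.1% of non-immunoglobulin genes tested. That class also held 50% of mast cell and basophil markers and 42.9% of megakaryocyte and platelet markers. The Cd27 level was 118 and 113 CPM at 1 h and 30.1 and 31.3 CPM at 3 h, a TNF receptor of multipotent progenitors. Cd27 lay lower in both 3 h files, by -1.91 ± 0.07. The Meis1 level was 138 and 142 CPM at 1 h and 50.9 and 49.3 CPM at 3 h, the HOX cofactor. Meis1 changed by -1.48 ± 0.06 with no overlap, and Etv6, an ETS repressor needed by stem cells, by -1.07 ± 0.05. Ly6a, the Sca-1 antigen, went the other way, from 64.8 and 65.7 CPM at 1 h to 139 and 144 CPM at 3 h (1.11 ± 0.05). The summed level of the 42 genes was 3541 and 3524 CPM at 1 h and 2786 and 2845 CPM at 3 h, and none of them was at 0 in the 4 files. Over the same interval the immunoglobulin share of gene counts and the summed levels of 9 of the 10 marker lists for other cell types were higher at 3 h, with values below, and their part in the fall was not tested. Some genes stand in more than 1 list, among them Gata2 and Vwf.

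Housekeeping mRNAs stayed close to the scaling reference, so their sign depended on it. Long-lived reference mRNAs had a median of 0.12 (20 higher and 10 lower of 38), cytosolic ribosomal proteins 0.08 (32 higher and 6 lower of 83), oxidative phosphorylation subunits -0.02 (14 and 22 of 76), glycolysis enzymes -0.01 (8 and 11 of 25) and translation factors -0.03 (7 and 9 of 20), and each of these signs flips under at least 1 other scaling. On the ERCC scale their medians were -0.28, -0.32, -0.42, -0.40 and -0.43, all at or above the -0.48 of all genes. Those higher on the non-immunoglobulin scale were 52.6%, 38.6%, 18.4%, 32% and 35%, and those lower 26.3%, 7.23%, 28.9%, 44% and 45%. Of all genes tested 23.1% were higher and 34.3% lower. Of non-immunoglobulin genes with at least 8 CPM 16.7% were higher and 56.8% lower. The Eef1a1 level was 14760 and 14626 CPM at 1 h and 17497 and 17296 CPM at 3 h, the elongation factor that delivers tRNA. The 3 h files were higher by 0.24 ± 0.01, a value that reversed with total gene counts (-0.02) and was -0.15 on the ERCC scale. Rplp0, a ribosomal stalk protein, changed by 0.31 ± 0.02 and by -0.09 on the ERCC scale. B2m, the MHC class I light chain, and Ftl1, ferritin light chain, were higher on both scales (0.63 ± 0.02 and 0.51 ± 0.02, ERCC 0.23 and 0.12). Coro1a, an actin regulator of leukocytes, fell on both (-0.61 ± 0.02, ERCC -1.01). Pkm, pyruvate kinase, changed by 0.41 ± 0.02 but by 0.02 on the ERCC scale, and Slc2a1, the glucose transporter GLUT1, by -1.12 ± 0.07. Uqcrc1, a complex III subunit, changed by -0.22 ± 0.02, which did not pass with DESeq2 size factors (-0.0039).

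mRNAs made by the mitochondrial polymerase split. Of 13 tested, 1 rose (7.69%) and 6 fell (46.2%), with a median of -0.32, while DESeq2 size factors gave 5 higher and 2 lower (median -0.10). Of all genes tested 23.1% rose and 34.3% fell on the non-immunoglobulin scale. The mt-Co1 level was 4499 and 4483 CPM at 1 h and 6101 and 6112 CPM at 3 h, a core subunit of cytochrome c oxidase. It was higher in both 3 h files (0.44 ± 0.02) but at 0.05 on the ERCC scale, while mt-Nd1 of complex I went from 2728 and 2719 CPM at 1 h to 1898 and 1878 CPM at 3 h (-0.53 ± 0.02).

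**Figure D2:**
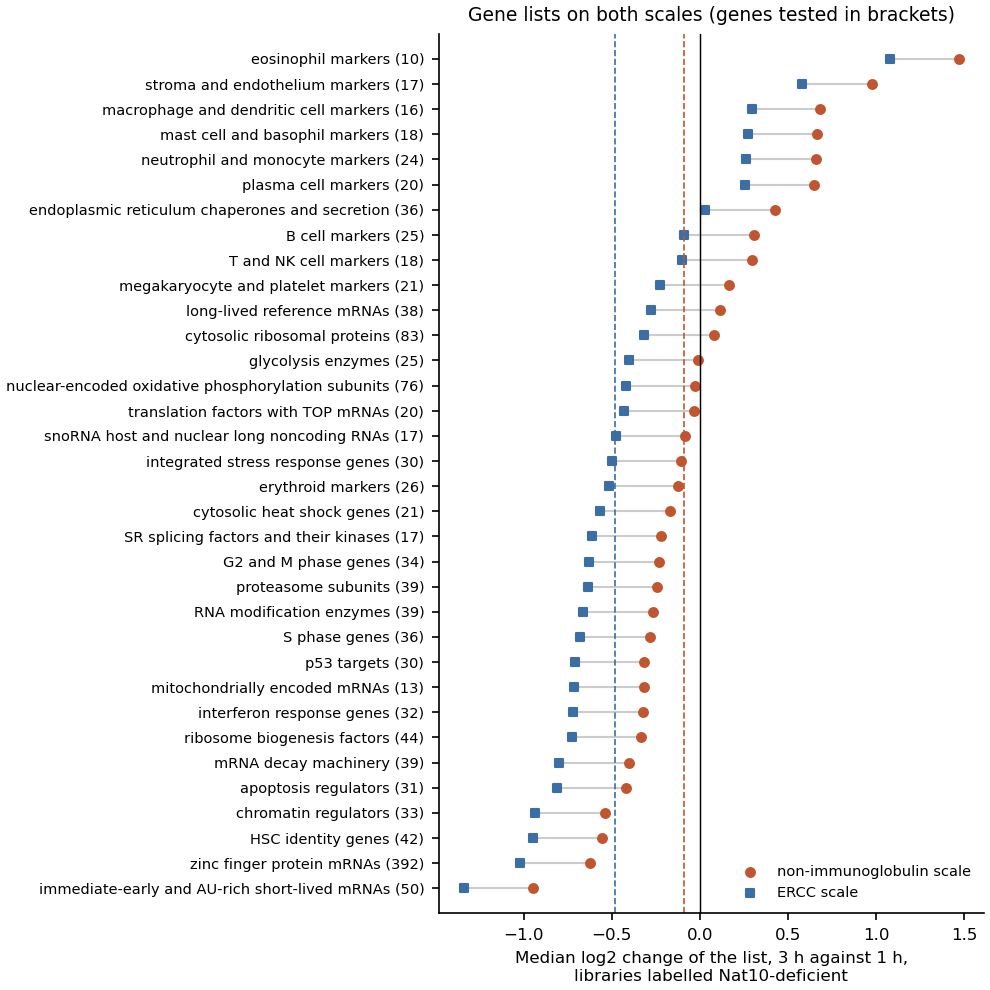
Median log2 change from 1 to 3 h of each gene list (x axis) in the libraries labelled Nat10-deficient, on the non-immunoglobulin scale (circles) and the ERCC scale (squares), with dashed lines at the medians of all genes tested (-0.09 and -0.48). The list of sex-linked transcripts (2 genes tested, median -2.80) is not drawn. Of the lists drawn, immediate-early mRNAs lie lowest at -0.95 and eosinophil markers highest at 1.47.

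Growth and division genes were mostly lower on this scale. Ribosome biogenesis factors fell in 34 of 44 and rose in 1 (median -0.33), S phase genes fell in 26 of 36 and rose in 1 (median -0.28), G2 and M phase genes fell in 22 of 34 and rose in 2 (median -0.23), and proteasome subunits fell in 26 of 39 and rose in 6 (median -0.24). Those lower were 77.3%, 72.2%, 64.7% and 66.7%, beside 56.8% of genes with at least 8 CPM. With DESeq2 size factors the lower and higher counts were 24 and 8, 17 and 7, 15 and 10, and 12 and 13, so the majority of proteasome subunits turned, with medians of -0.12, -0.07, -0.02 and -0.03. The Plk1 level was 61.5 and 62.3 CPM at 1 h and 24.5 and 27.4 CPM at 3 h, the mitotic kinase. Plk1 was lower in both 3 h files (-1.25 ± 0.09), Aurkb, a kinase of the chromosomal passenger complex, changed by -0.64 ± 0.04, and Mcm2, a subunit of the replicative helicase, by -0.40 ± 0.03. Utp4, a factor of small-subunit processing, and Nop58, a core snoRNP protein, changed by -1.11 ± 0.05 and -0.39 ± 0.03. Psmd3, of the proteasome lid, changed by -0.51 ± 0.04.

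Stress pathways differed among themselves. Endoplasmic reticulum chaperones and secretion genes rose in 32 of 36 and fell in 3, with a median of 0.43 that stayed positive under every scaling, although on the ERCC scale 15 rose and 10 fell (median 0.03). Those higher on the non-immunoglobulin scale were 88.9%, beside 23.1% of all genes tested. The share was 16.7% of non-immunoglobulin genes with at least 8 CPM. The Hsp90b1 level was 1022 and 999 CPM at 1 h and 1874 and 1847 CPM at 3 h, the chaperone GRP94. Both 3 h files were higher (0.88 ± 0.02), and Calr, calreticulin, changed by 0.70 ± 0.02. Markers of plasma cells, which are built for secretion, were also higher at 3 h, with values below, and their part in this rise was not tested. Cytosolic heat shock genes fell in 15 of 21 and rose in 4 (median -0.17, positive with DESeq2 size factors). Those lower were 71.4%, beside 56.8% of non-immunoglobulin genes with at least 8 CPM. The Dnajb1 level was 706 and 723 CPM at 1 h and 236 and 232 CPM at 3 h, the HSP40 co-chaperone. Dnajb1 was lower in both 3 h files (-1.61 ± 0.03), and Hspa8 changed by -0.45 ± 0.02.

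Integrated stress response genes had 6 higher and 15 lower of 30, with a median of -0.10 that turned positive under TMM and DESeq2 factors. Those lower were 50%, under the 56.8% of non-immunoglobulin genes with at least 8 CPM. Atf3, a stress-induced repressor, changed by -1.26 ± 0.07, and Cebpg, a partner of ATF4, went from 35 and 31 CPM at 1 h to 5.69 and 8.37 CPM at 3 h (-2.22 ± 0.14). p53 targets fell in 18 of 30 and rose in 4 (median -0.31), apoptosis regulators fell in 19 of 31 and rose in 5 (median -0.42), and interferon response genes fell in 19 of 32 and rose in 5 (median -0.32). Their shares lower, 60%, 61.3% and 59.4%, are near the 56.8% of all non-immunoglobulin genes with at least 8 CPM. They are above the 34.3% of all genes tested. The Mcl1 level was 98.9 and 105 CPM at 1 h and 45.9 and 51.1 CPM at 3 h, an anti-apoptotic BCL2 relative. Mcl1 changed by -1.07 ± 0.06 and Bcl2l1, which encodes BCL-XL, by -1.03 ± 0.07. Against these, Pmaip1, which encodes the BH3-only protein NOXA that binds MCL1, went from 30.6 and 35.2 CPM at 1 h to 88 and 86.3 CPM at 3 h (1.40 ± 0.08, ERCC 1.01). Xpc, a sensor of DNA damage, changed by -1.21 ± 0.08. Irf1, an interferon-induced activator, changed by -1.42 ± 0.04, whereas Stat2, a signal transducer of interferon receptors, went from 32.7 and 33.7 CPM at 1 h to 90.4 and 78.4 CPM at 3 h (1.34 ± 0.07).

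**Figure D3:**
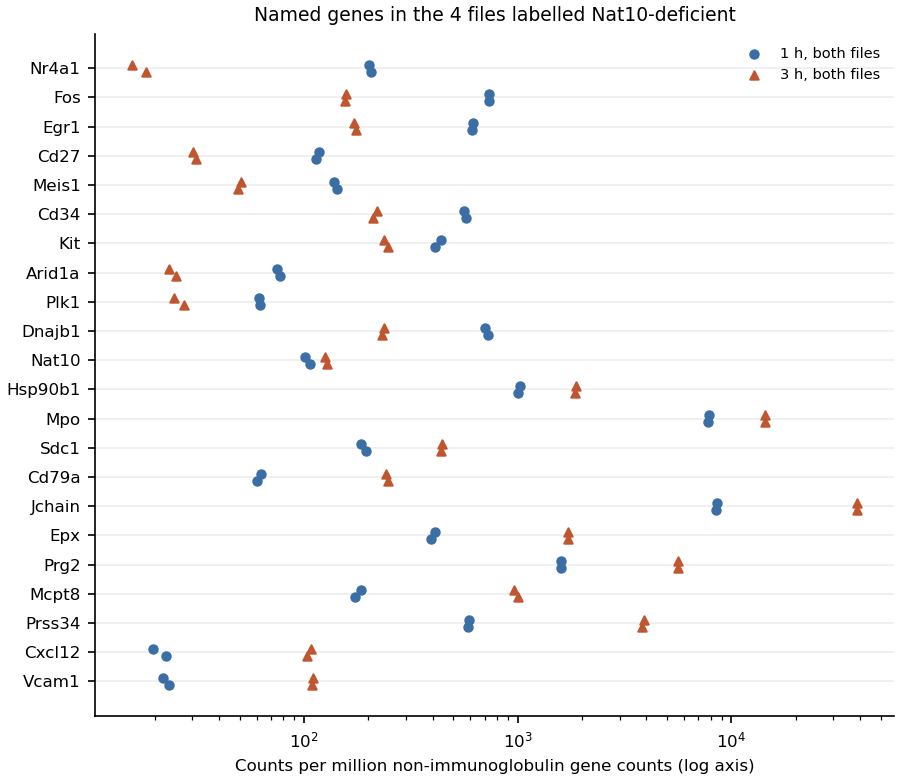
Level of 22 named genes in each of the 4 files (x axis, CPM on a log axis), with circles for the files at 1 h and triangles for those at 3 h. In each of the 22 genes both files of one time lie beyond both files of the other.

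Immunoglobulin RNA, the product of B-lineage cells, took a larger share at 3 h. It made up 9.04% and 9.01% of gene counts in the 1 h files (95% exact binomial intervals 9.02 to 9.05 and 8.99 to 9.02) and 24.6% and 24.4% in the 3 h files (24.5 to 24.6 and 24.4 to 24.4). These intervals cover counting error only, as amplified reads without molecular identifiers are not independent molecules. Over all genes tested 23.1% rose and 34.3% fell. Of 244 immunoglobulin genes tested, 205 (84.0%) rose and 8 (3.28%) fell, with a median of 2.17 on the non-immunoglobulin scale. Constant regions, the most abundant of them, were higher on both scales. The Igkc level was 61990 and 61850 CPM at 1 h and 191860 and 189964 CPM at 3 h for the kappa constant region, on chromosome 6 at 70703419 to 70703950 (GRCm39). Both 3 h files were higher, by 1.62 ± 0.01 and by 1.23 on the ERCC scale. The Igha level was 6371 and 6201 CPM at 1 h and 46166 and 45337 CPM at 3 h for the IgA constant region, a change of 2.86 ± 0.01. Ighm, the IgM constant region, changed by 1.07 ± 0.01, and Ighg2b by 1.96 ± 0.01.

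The segments in use differed between the times. At 1 h Ighv11-2 held 26.6% and 26.3% of heavy-chain variable counts in the 2 files, and at 3 h 11.2% and 11.4%. Igkv14-126 went from 22.0% to 9.37% of kappa variable counts, and Igkv10-96 led at 3 h with 12.2%. The effective number of segments, 1 over the summed squared shares, was 10.5 at 1 h and 25.8 at 3 h for heavy chains, and 11.1 and 23.8 for kappa chains. Among heavy constant regions Ighm went from 57.1% to 32.8% of counts and Igha went from 22.5% to 45.0%. At 0 h the effective numbers were 10.9 and 12.7 and Ighm held 57.0%. By 5 h the immunoglobulin share was 3.90%.

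Some variable segments changed by more than these constant regions. The Ighv5-17 level was 10.5 and 9.95 CPM at 1 h and 191 and 185 CPM at 3 h, a change of 4.20 ± 0.07. The Igkv6-17 level was 3.66 and 1.72 CPM at 1 h and 55.3 and 52.2 CPM at 3 h, a change of 4.31 ± 0.14. Igkv5-37 had 2 counts in all at 1 h and 500 at 3 h, a ratio of 321 with a counting interval of 88.5 to 2661. Heavy variable segments rose in 91 of 99 and fell in 4 (median 2.28), and kappa variable segments rose in 86 of 92 and fell in 1 (median 2.40). Segments share sequence, and fragments that fit several of them can be split or dropped in counting.

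**Figure D4:**
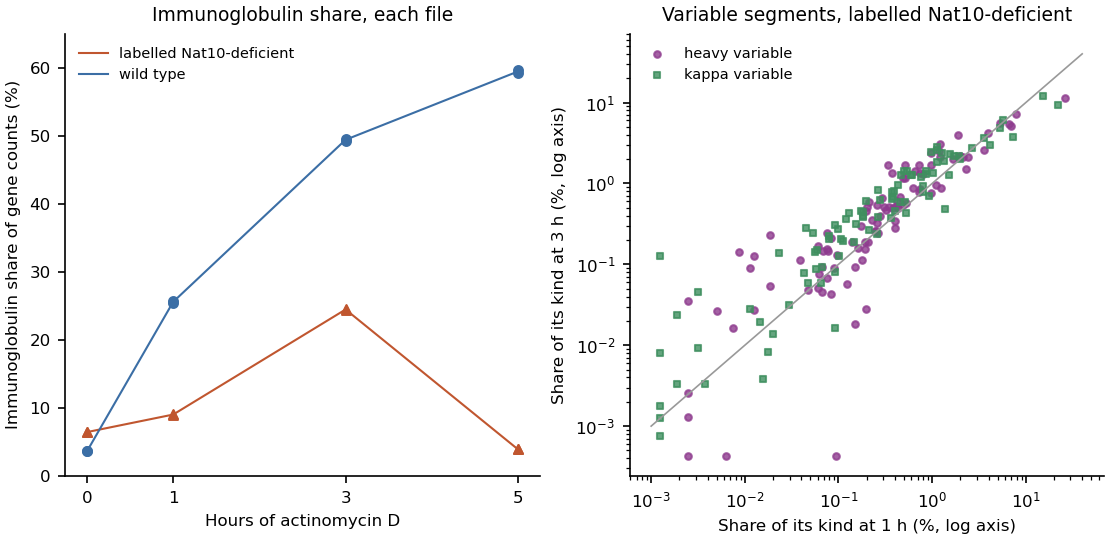
Left, immunoglobulin share of gene counts in each file (y axis, percent) against hours of actinomycin D, with a line through the mean of the 2 files per group. Right, share of each variable segment among its kind at 3 h against 1 h in the libraries labelled Nat10-deficient (both log axes, grey line for equal shares). The share goes from 9.02% at 1 h to 24.5% at 3 h and is 3.90% at 5 h, and the leading heavy and kappa segments at 1 h, Ighv11-2 and Igkv14-126, lie under the line.

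Plasma cell markers rose with them, 13 of 20 with 1 fall and a median of 0.65 (ERCC scale 0.25). For this and the marker lists below, the share that rose was 23.1% of all genes tested. It was 16.7% of non-immunoglobulin genes with at least 8 CPM. The Jchain level was 8546 and 8467 CPM at 1 h and 38878 and 38612 CPM at 3 h, the chain that joins IgA and IgM polymers. Jchain changed by 2.19 ± 0.01 with no overlap, and Derl3, of endoplasmic reticulum quality control, by 2.05 ± 0.05. Sdc1, the CD138 antigen of plasma cells, went from 185 and 196 CPM at 1 h to 445 and 437 CPM at 3 h (1.21 ± 0.03). Summed plasma cell markers were 10598 and 10563 CPM at 1 h and 42006 and 41748 CPM at 3 h. B cell markers were mixed, with 12 higher and 8 lower of 25 and a median of 0.30. The Cd79a level was 62.7 and 60.1 CPM at 1 h and 242 and 247 CPM at 3 h, a signalling chain of the B cell receptor. Cd79a was higher in both 3 h files (1.99 ± 0.04), and Cd74, the MHC class II invariant chain, changed by 1.29 ± 0.02. Dntt, the terminal transferase of early lymphoid progenitors, fell from 29.2 and 30.5 CPM at 1 h to 9.52 and 10.8 CPM at 3 h (-1.55 ± 0.13).

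Granulocyte markers were also higher at 3 h. Of 10 eosinophil markers 9 rose and none fell, with a median of 1.47 (ERCC scale 1.08, 8 higher and 1 lower). The Prg2 level was 1594 and 1596 CPM at 1 h and 5613 and 5651 CPM at 3 h, the eosinophil major basic protein. Prg2 changed by 1.82 ± 0.02, with no overlap between times. The Epx level was 409 and 393 CPM at 1 h and 1728 and 1715 CPM at 3 h, eosinophil peroxidase. Epx changed by 2.10 ± 0.03, and by 3.00 in wild type. Neutrophil and monocyte markers rose in 16 of 24 and fell in 3 (median 0.66). Mpo, myeloperoxidase, went from 7837 and 7811 CPM at 1 h to 14398 and 14316 CPM at 3 h (0.88 ± 0.02), and Elane, neutrophil elastase, changed by 0.92 ± 0.02. Slpi, a secreted inhibitor of such proteases, was among the largest rises of all genes, from 109 and 106 CPM at 1 h to 628 and 614 CPM at 3 h (2.53 ± 0.03). Late neutrophil marker Retnlg was at 0 in all 4 files, the only member of the neutrophil and monocyte list to be so.

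Mast cell and basophil markers rose in 11 of 18 and fell in 3, with a median of 0.67, whereas their median in wild type was -0.96. The Prss34 level was 592 and 583 CPM at 1 h and 3894 and 3831 CPM at 3 h, a protease of basophils, encoded on chromosome 17 at 25517368 to 25519139 (GRCm39). Both 3 h files were higher by 2.72 ± 0.02, with no overlap. The Mcpt8 level was 185 and 173 CPM at 1 h and 965 and 1001 CPM at 3 h, the basophil protease. Mcpt8 changed by 2.46 ± 0.03, Hdc, which makes histamine, by 1.44 ± 0.04, and Cpa3, carboxypeptidase A3 of mast cells, by 1.08 ± 0.04. Gata2, a factor of stem cells, mast cells and basophils alike, fell, from 123 and 116 CPM at 1 h to 64.4 and 61.2 CPM at 3 h (-0.93 ± 0.05). In wild type Prss34, Mcpt8, Hdc and Cpa3 had values of -0.41, -0.75, -0.17 and -0.65, and each difference between genotypes passed the test.

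Other non-stem markers were higher or mixed. Stroma and endothelium markers rose in 11 of 17 and fell in 3 (median 0.98), at low levels, with a sum of 184 and 183 CPM at 1 h and 361 and 353 CPM at 3 h. The Vcam1 level was 21.8 and 23.3 CPM at 1 h and 109.9 and 109 CPM at 3 h, an adhesion molecule of marrow stroma and macrophages. Vcam1 changed by 2.28 ± 0.08. The Cxcl12 level was 19.6 and 22.5 CPM at 1 h and 108 and 103 CPM at 3 h, the stromal chemokine that retains stem cells. Cxcl12 changed by 2.33 ± 0.08 and Lepr, a receptor of perivascular stroma, by 2.69 ± 0.22, whereas Pdgfrb, of pericytes, changed by -1.99 ± 0.19. Macrophage and dendritic cell markers had 8 higher and 4 lower of 16, and T and NK cell markers 8 and 6 of 18. In the latter list Nkg7, a granule protein, changed by 0.44 ± 0.04.

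Erythroid markers fell in 15 of 26 and rose in 7, with a median of -0.12 that turned positive with TMM and DESeq2 factors. Their share lower, 57.7%, is near the 56.8% of non-immunoglobulin genes with at least 8 CPM and above the 34.3% of all genes tested. The Klf1 level was 246 and 246 CPM at 1 h and 121 and 116 CPM at 3 h, the erythroid master regulator. Klf1 was lower in both 3 h files (-1.06 ± 0.04), Nfe2 changed by -1.28 ± 0.06 and Gata1 by -0.52 ± 0.04, all 3 transcription factors. Slc4a1, the band 3 anion exchanger of red cells, went from 12.4 and 12.6 CPM at 1 h to 41.5 and 39.9 CPM at 3 h (1.70 ± 0.12). Megakaryocyte and platelet markers had 8 higher and 6 lower of 21, with a median of 0.17 that was negative when total gene counts or long-lived mRNAs set the scale. Gp5, a platelet glycoprotein, went from 95.7 and 98.6 CPM at 1 h to 23.8 and 26 CPM at 3 h (-1.96 ± 0.08), while Vwf, von Willebrand factor, went from 61.9 and 62.4 CPM at 1 h to 122 and 132 CPM at 3 h (1.03 ± 0.05).

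**Figure D5:**
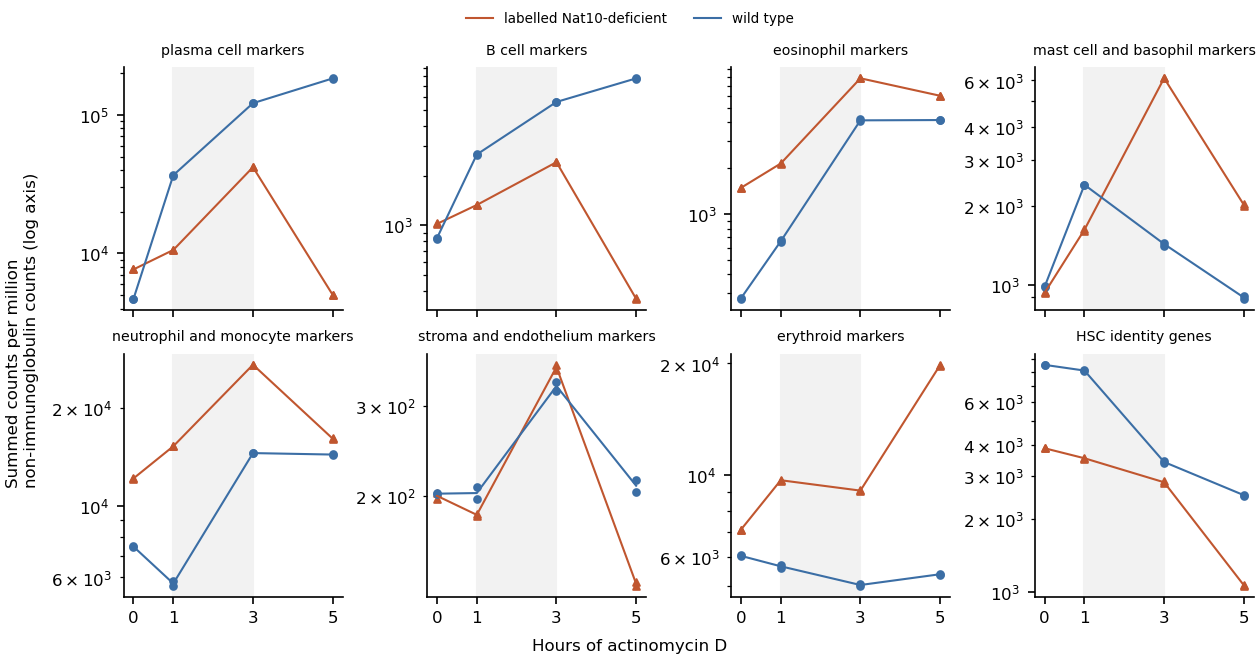
Summed CPM of 8 marker lists (y axis, log) in every file against hours of actinomycin D, for libraries labelled Nat10-deficient (triangles) and wild type (circles), with lines through the mean of 2 files and the 1 to 3 h interval shaded. In the libraries labelled Nat10-deficient the plasma cell, B cell, eosinophil, mast cell, neutrophil and stroma sums are highest at 3 h. The erythroid and stem cell sums are not.

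The intervals on either side share libraries with this one, so their values stand side by side only. Medians over 0 to 1, 1 to 3 and 3 to 5 h were -0.12, -0.55 and -1.87 for stem cell genes, -1.25, -0.95 and -1.95 for immediate-early mRNAs, and 0.19, 0.08 and 0.33 for ribosomal proteins. They were 0.26, 0.65 and -2.83 for plasma cell markers, 0.58, 1.47 and -1.40 for eosinophil markers, and 0.59, 0.67 and -1.88 for mast cell and basophil markers. Plasma cell, eosinophil and mast cell markers thus stood lower at 5 h than at 3 h, as did the immunoglobulin share.

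Wild-type libraries over the same 2 h share no file with the 4. Across 25081 genes the changes in the 2 genotypes had a Pearson correlation of 0.06, and of 0.44 over the 9169 genes with at least 8 CPM. These are correlations across genes, which are not independent replicates. Both genotypes fell in 4436 genes and both rose in 2646, while 1212 rose in the libraries labelled Nat10-deficient and fell in wild type and 1821 did the reverse. The difference of the changes passed the test in 5992 genes (23.9%) with a positive and 6739 (26.9%) with a negative value, and on the ERCC scale in 4479 and 8336, which moves the positive share from 47.1% to 35.0%. Of the 42 stem cell genes 35 had a positive difference and 1 a negative one: their median was -1.50 in wild type and -0.55 in libraries labelled Nat10-deficient. Their summed level in wild type was 8122 and 8047 CPM at 1 h and 3434 and 3386 CPM at 3 h. In libraries labelled Nat10-deficient the sum was lower at both times, 3541 and 3524 CPM at 1 h and 2786 and 2845 CPM at 3 h. Of 18 mast cell and basophil markers 13 were positive and 4 negative, of 21 megakaryocyte markers 12 and 5, and of 26 erythroid markers 4 and 16. Among immediate-early mRNAs 20 of 50 had a positive and 10 a negative difference, with medians of -1.09 in wild type and -0.95. The libraries of the 2 genotypes also differed in their immunoglobulin share, 25.6% at 1 h and 49.4% at 3 h in wild type, and in their ERCC share, and the part of either in these differences was not tested.

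Genes with large differences between genotypes included some that were at or near 0 in 1 group. C4b, a complement component, went from 6.5 and 6.51 CPM at 1 h to 14.5 and 13.7 CPM at 3 h in libraries labelled Nat10-deficient, and from 11.9 and 12.2 CPM at 1 h to 0 in both 3 h files in wild type. Fzd6, a Wnt receptor, went from 8.66 and 8.82 CPM to 0.0981 and 0 in libraries labelled Nat10-deficient, which is 234 counts against 1, a ratio of 0.00549 with a counting interval of 1.38e-04 to 0.0309. It held 22.2 and 23.8 CPM at 1 h and 14.6 and 14.8 at 3 h in wild type. Ifi213, an interferon-inducible gene, changed by -2.11 ± 0.43 and by 3.04 in wild type, Sh3tc2, an endosomal adaptor, by -1.62 ± 0.18 and 3.41, and Rubcnl, a regulator of autophagosome maturation, by -1.29 ± 0.23 and 3.38.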

How the data were processed

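Per the file headers, the authors' deposited files hold counts: whole fragment counts per gene from featureCounts 1.6.3, paired and without regard to strand, over GRCm39 genes and 92 ERCC sequences. The exonic length in the deposited files was used only to split genes by length. The submitters' processing notes name STAR, featureCounts, DESeq2 and GRCm39. Of 55414 genes, 94.0% matched a symbol in a GENCODE mouse table, used for names and classes only. Without strand, overlapping and antisense genes cannot be told apart. Genes kept by filterByExpr (25081) were fitted with edgeR 4.0.16 in R 4.3.3 (glmQLFit and glmQLFTest, with 1 coefficient per group over 8 groups), with Benjamini-Hochberg adjustment over all of them and a threshold of 0.05. Errors after ± are standard errors worked back from the F statistic. Immunoglobulin genes are 432 by class or symbol, without Jchain. An apparent half-life is the hours between times over the log2 loss on the ERCC scale. Stability classes used wild-type bounds of -1 (lost) and -0.5 (persistent, in both intervals). Named genes are the 15 largest falls and rises with at least 8 CPM, 6 immunoglobulin genes, 6 differences between genotypes each way, up to 5 per list by smallest p, 10 by level, 8 of the intermediate class and Nat10, of which the text gives a selection. Dusp8 is outside that rule, and so are Retnlg and the segments named by share. Members, lists and tests were chosen with earlier results of these data known. Leave-outs, other scalings, DESeq2 1.42.0, summed files and a replicate term were tried. The test was also run on simulated data.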

Additional observations from a re-analysis of the deposited data

Results flagged for a closer look

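The values below are differences of the log2 change from 1 to 3 h, labelled Nat10-deficient minus wild type, on the non-immunoglobulin scale. Each passed edgeR's test of the difference itself, over 2 files for each genotype and time. The 2 files of a group name 1 alignment, so the tests cover the spread between files.

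Basophil and mast cell genes differed upward: Prss34 by 3.128, Mcpt8 by 3.202, Cpa3 by 1.726 and Hdc by 1.611. Each was higher in both 3 h files labelled Nat10-deficient and had a negative value in wild type. Kit, Cd34, Cd27, Meis1 and Gata2 fell in both genotypes and fell less in the libraries labelled Nat10-deficient. Their differences were 1.269, 0.964, 1.367, 0.6172 and 1.256. They do not stand for all stem cell genes, as 12 of the 42 listed rose and 26 fell in those libraries, and Cd34 is not listed. Cd34 and Kit belong to the intermediate class, whose definition sets a wild-type fall of at least 1 and so favours a positive difference. Nat10 itself differed by 1.271. Vwf, which stands in both the stem cell and the platelet list and rose, differed by 2.038. The stromal chemokine Cxcl12 differed by 2.054.

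Differences in the other direction were -0.8991 for Epx and -0.8046 for Mpo, both granule peroxidases that rose in both genotypes. The erythroid regulator Klf1 differed by -1.236, the platelet gene Gp5 by -1.545 and the chromatin regulator Asxl1 by -3.396. Ifi213 differed by -5.142, Sh3tc2 by -5.033 and Rubcnl by -4.677, none of them above 16.7 CPM in the 4 files labelled Nat10-deficient.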

How the results depend on the processing

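Counts of genes stayed within 1.5 times of the reported ones under all settings but 1, the files of each group summed. There 0 genes rose and 1 fell on the ERCC scale, and 0 rose and 0 fell on the non-immunoglobulin scale. That fit had 2 residual degrees of freedom, from wild type put on a straight line over the hours. Its common coefficient of variation over genes was 1.03 on the ERCC scale and 1.04 on the non-immunoglobulin scale. Leaving out each file in turn gave 4911 to 5023 higher and 7258 to 7707 lower genes on the non-immunoglobulin scale, and 3164 to 3387 and 11014 to 11393 on the ERCC scale, and for the difference between genotypes 5293 to 5651 positive and 5968 to 6306 negative values. The file numbers do not pair the files: 28 correlations of same-numbered deviations ran from -0.01 to 0.04, none over 0.1. With a replicate block the counts were 5651 and 8509 on the non-immunoglobulin scale, 3733 and 12095 on the ERCC scale, and 5952 and 6670 for the difference between genotypes. Adding Jchain moved the immunoglobulin share to 9.80% at 1 h and 27.4% at 3 h. With TMM factors the class medians were -0.38 for early, -0.44 for intermediate and 0.0014 for persistent mRNAs, and with bounds of -0.75 the first 2 were -0.50 and -0.48. The cause of these moves was not tested. Of 113 genes tracked through 15 settings on the non-immunoglobulin scale, 1 reversed: Eef1a1, at -0.0248 with total gene counts. All 113 missed the threshold with summed files, and otherwise Hk1 and Uqcrc1 missed it with DESeq2 size factors and Nat10 with long-lived mRNAs and with total gene counts. ERCC counts of 8560 to 9065 a file, and the 2 files of a group naming 1 alignment, limit what these data can show.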

Other observations

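The named genes with the largest falls and rises include some not yet described, selected after their values were seen. Ptk7, a receptor-like pseudokinase of Wnt and planar polarity signalling, had 17.5 and 19.1 CPM at 1 h and 2.26 and 2.45 CPM at 3 h, a change of -2.95 ± 0.20. Il1r1, the receptor for interleukin-1, had 14.9 and 19.4 CPM at 1 h and 2.16 and 2.63 CPM at 3 h (-2.83 ± 0.21), with a value of 1.03 in wild type. Tbxa2r, the thromboxane receptor, and Thsd1, a membrane protein of endothelium, changed by -2.82 ± 0.20 and -3.14 ± 0.22. Fut7, which builds selectin ligands, H6pd, which makes NADPH in the endoplasmic reticulum, and Abcd4, a lysosomal cobalamin transporter, changed by -2.78 ± 0.20, -2.76 ± 0.18 and -2.76 ± 0.19. In each of these genes both 3 h files lay below both 1 h files.

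Of the rises, Ibsp, the bone sialoprotein of osteoblasts, had 1.49 and 1.42 CPM at 1 h and 14.4 and 14.8 CPM at 3 h (3.31 ± 0.29). Cyp11a1, the side-chain cleavage enzyme of steroid synthesis, had 8.89 and 8.08 CPM at 1 h and 54.1 and 48.8 CPM at 3 h (2.60 ± 0.13), with a value of -0.73 in wild type. Olr1, the receptor for oxidised low-density lipoprotein, changed by 2.27 ± 0.15, Alox15, a lipoxygenase, by 2.07 ± 0.15, and Xdh, xanthine dehydrogenase, by 2.07 ± 0.14. These 5 genes were also higher on the ERCC scale, by 1.67 to 2.93. The difference between genotypes is not given for the genes of these paragraphs.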
